A study of Homo sapiens with 16 samples.

Results

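The cytosolic ribosomal protein genes encode the protein parts of the small and large subunits of the cytoplasmic ribosome. Members were taken by symbol: RPL or RPS with a number and at most 1 closing letter A, X or L, plus RPLP0, RPLP1, RPLP2 and RPSA. The rule gave 81 of 21453 gene symbols. For the 24 members with several RefSeq transcripts, the transcript with the highest mean level was used. Of the 81 genes, 80 reached the minimum for testing, at least 1 RPKM in at least 2 libraries, 48 of the large and 32 of the small subunit. The exception was RPL3L, the form made in striated muscle, which was listed at 0 in 6 of 8 T-47D libraries and did not exceed 0.274 scaled RPKM in any library.

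The study asked how 2 chemicals with estrogenic activity compare with the hormone in breast and endometrial cancer cells. T-47D is a breast cancer cell line and ECC-1 a cell line labelled as endometrial cancer, and both were kept for 5 days in RPMI-1640 without phenol red, with 10% serum stripped by dextran and charcoal, a medium low in steroid hormones. Each line was then given 10 nM 17β-estradiol (E2), 100 nM bisphenol A (BPA, a plastics monomer), 100 nM genistein (GEN, a soy isoflavone) or, as the control, 0.02% DMSO, all for 8 h. Each of the 8 groups has 2 libraries, 16 in all, of polyadenylated RNA from 100 mm dishes. The labels name no cell clone and do not say whether the 2 libraries of a group come from separate cultures, so p-values measure only the spread between these samples.

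Ribosomes hold nearly all of these proteins in equal numbers, and cells make them together. Their mRNAs are among the most abundant in growing cells, and most begin with a terminal oligopyrimidine (TOP) tract, a C followed by a run of C and T at the 5′ end. Through this tract the mTOR pathway and the RNA-binding protein LARP1 control their translation, while MYC is known to raise their transcription. RPL5 and RPL11 are known for a role off the ribosome, where they bind MDM2 and so stabilise p53. RPS6 is the classic substrate of the S6 kinases.

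From the size of 1 read in the low values, a transcript of 1 kb at 1 RPKM stood for 17.3 to 29.4 reads, depending on the library. Levels are RPKM (reads per kilobase of transcript, relative to the reads of the library) divided by a scale factor per library of 0.938 to 1.054, so they are relative levels and not amounts per cell. In bulk RNA, fewer cells that express a gene and less of its RNA per cell cannot be told apart. Luminal breast markers summed to 2470 to 4020 scaled RPKM over the T-47D libraries and 115 to 161 over the ECC-1 libraries. Müllerian or endometrial markers summed to 0.439 to 0.745 in T-47D and 328 to 372 in ECC-1. All 6 fibroblast markers together reached 16.9 to 31.8 in T-47D and 9.42 to 15.5 in ECC-1, and all 5 leukocyte markers 4.36 to 7.36 and 4.08 to 6.36, with MS4A1 at 0 in every ECC-1 library. The first estradiol library of each line stood apart from the rest by transcript length. Over 226 other genes with transcripts of up to 815 nt (the members' median) and at least 5 RPKM in every library, called short transcripts here, its median deviation was 0.51 on the log2 scale in T-47D and -0.55 in ECC-1, against -0.24 to 0.07 in the other 14 libraries. The estradiol results rest in part on these 2 libraries, and medians are given with and without them.

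Most members had an oligopyrimidine tract at the annotated start. RefSeq promoters (GRCh38.p14) were at hand for 64 of the 81 members. An unbroken run of at least 5 C or T that begins with C at the annotated first base was found in 46 of them, 71.9%, and in 5.97% of 15779 other coding genes. C stood at the first base in 76.6% of the members and 14.7% of the other genes, and the median run was 7 bases in the members and 0 in the others. Of the 20 other genes on the TOP list, 12 had an entry and 11 of those had the run. Within the 300 bases from 250 before to 50 after the start, and on either strand, TTCCGG, the core of an ETS site, was present in 57.8% of members and 26.5% of other genes. AAGATGGC, a YY1-like core, was present in 9.38% and 4.65%, GGGCGG in 59.4% and 64.3%, and TATAA in 20.3% and 21.0%. These matches are descriptions of letters and not of bound sites. The 40 bases around the start, 25 before and 15 after, are given for 4 genes with a large difference between the lines described later (RPL36, RPL27A, RPS16, RPLP2), 3 with a small one (RPL13, RPL22, RPS27) and 3 to set paralogues side by side (RPL10 with RPL10L, and RPS27L with RPS27). They were chosen after their values were seen, and capitals mark the run that starts at the first transcribed base.
RPL36: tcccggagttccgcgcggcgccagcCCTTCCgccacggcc
RPL27A: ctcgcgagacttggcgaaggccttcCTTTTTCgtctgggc
RPS16: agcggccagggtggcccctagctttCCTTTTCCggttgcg
RPLP2: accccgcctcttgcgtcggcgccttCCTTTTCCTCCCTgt
RPL13: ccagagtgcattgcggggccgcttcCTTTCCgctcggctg
RPL22: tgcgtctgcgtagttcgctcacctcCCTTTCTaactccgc
RPS27: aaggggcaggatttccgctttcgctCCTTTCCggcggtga
RPS27L: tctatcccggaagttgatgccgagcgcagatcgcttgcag
RPL10: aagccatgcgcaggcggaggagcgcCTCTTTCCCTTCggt
RPL10L: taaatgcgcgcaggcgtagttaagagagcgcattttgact
On GRCh38.p14 these windows lie at RPL36 chr19:5690270-5690309 (plus strand), RPL27A chr11:8682767-8682806 (plus strand), RPS16 chr19:39435935-39435974 (minus strand), RPLP2 chr11:809942-809981 (plus strand), RPL13 chr16:89560657-89560696 (plus strand), RPL22 chr1:6199581-6199620 (minus strand), RPS27 chr1:153990737-153990776 (plus strand), RPS27L chr15:63157463-63157502 (minus strand), RPL10 chrX:154398352-154398391 (plus strand), RPL10L chr14:46651767-46651806 (minus strand). In the 8 genes with capitals the run had 6 to 13 bases. RPS27L and RPL10L have none at their annotated start, while their counterparts RPS27 and RPL10 have 7 and 12. Genes with a large and with a small difference between the lines both had the run. Over all members with an entry, the log2 difference between the lines in DMSO had a median of -1.62 in the 46 with the run and -1.21 in the 18 without, with ranges of -2.60 to -0.49 and -2.26 to -0.75 that overlap over most of their length.

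Members were far above the typical gene in both lines, and higher in ECC-1 than in T-47D. In DMSO the median member stood at 224 scaled RPKM in T-47D and 690 in ECC-1, where the median of all 13827 tested genes was 11.0 and 10.1. Among the 100 most abundant symbols, 23 were members in T-47D and 45 in ECC-1, and 1 member in T-47D and 22 in ECC-1 reached 1000 scaled RPKM. The summed level of all 81 genes was 22830 and 21689 in the T-47D DMSO libraries and 63412 and 61201 in the ECC-1 DMSO libraries, or 5.74% ± 0.13 of the summed RPKM in T-47D and 13.2% ± 0.183 in ECC-1 (SD, n = 2 each). All 8 T-47D libraries, from 20461 to 33356, lay below all 8 ECC-1 libraries, from 39995 to 64803. The extremes nearest to each other were the 2 first estradiol libraries, and without them the ranges were 20461 to 26293 in T-47D and 58063 to 64803 in ECC-1.

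**Figure D1:**
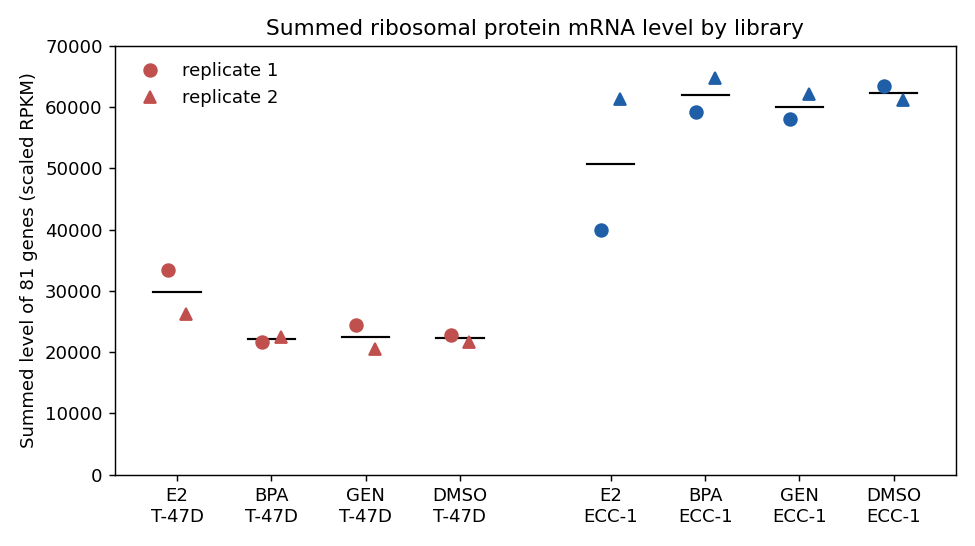
Summed level of the 81 ribosomal protein genes (scaled RPKM, linear axis from 0) in each of 16 libraries, by line and treatment, with circles for replicate 1, triangles for replicate 2 and a line at the group mean. T-47D libraries lie between 20461 and 33356 and ECC-1 libraries between 39995 and 64803, with the first estradiol library the highest in T-47D and the lowest in ECC-1.

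By the mean over all 16 libraries, in which ECC-1 weighs more, the most abundant member was RPS2, a small-subunit protein of the mRNA entry region, with a lowest, median and highest level of 793, 891 and 1440 scaled RPKM over the T-47D libraries and 2770, 3270 and 3640 over the ECC-1 libraries. RPLP0, the base of the stalk that recruits elongation factors, had 946, 1050 and 1380 in T-47D and 1660, 2320 and 2500 in ECC-1. In T-47D DMSO it stood above RPS2 and was the one member to reach 1000 scaled RPKM on average. RPSA, also known as the laminin receptor precursor, had 524, 572 and 688 in T-47D and 1510, 2080 and 2190 in ECC-1. For these 3 genes no T-47D library reached an ECC-1 library. The next by mean level were RPL41, whose product is the smallest of the ribosome with a coding length of 75 nt, RPL4, which with 1281 nt is the longest, and RPS3, a protein of the mRNA entry channel.

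At the low end, apart from RPL3L, RPL10L had 2.4, 3.29 and 3.9 scaled RPKM in T-47D and 3.88, 7.03 and 8.06 in ECC-1. RPL10L and RPL39L are paralogues known for expression in the testis. RPL39L had 8.53, 16.4 and 27.6 in T-47D and 13.6, 19.9 and 25.4 in ECC-1, and RPS27L, a known p53 target, had 15.3, 18.8 and 22.6 in T-47D and 19.5, 37.1 and 48.4 in ECC-1. All 3 overlapped between the lines. Core members were low as well: RPL27A, a large-subunit protein, with 14.1 and 14.2 in T-47D DMSO and 82.1 and 81.3 in ECC-1 DMSO, and RPS29, the small-subunit zinc-binding protein, with 32.9 and 42.8 in T-47D DMSO and 59.4 and 67.9 in ECC-1 DMSO. From the lowest to the highest tested member, levels spanned a 441-fold range in ECC-1 DMSO, with RPL10L at the low end. Without the paralogues RPL10L, RPL39L and RPS27L the range was 72.3-fold in T-47D DMSO, from RPL27A to RPLP0, and 50.5-fold in ECC-1 DMSO, from RPS29 to RPS2. Across the 80 genes the order of the levels was similar in the lines (Spearman's rho 0.90), and the mean level was higher in genes with a longer coding sequence (rho 0.68), both as descriptions over genes that share libraries.

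RefSeq lists 1966 processed or other pseudogenes named after the members, with a median of 16 per gene and the most, 137, for RPL21, and none for RPL3L, RPL10L, RPL39L and RPS27L. No source used here states how reads that match both a gene and its pseudogenes were counted, and the libraries keep no strand, so each level is uncertain to that extent. The line difference was nearly unrelated to the number of pseudogenes (rho -0.11), to coding length (rho -0.12) and to the mean level (rho -0.09) over the 80 genes.

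T-47D cells had less of nearly every ribosomal protein mRNA than ECC-1 cells in DMSO. By limma, with p-values adjusted by Benjamini-Hochberg over all 13827 genes and a threshold of 0.05, 79 of 80 members were lower in T-47D and 0 higher, where 37.1% of all tested genes were lower and 39.6% higher; under quantile normalization 67 were lower and RPL13 was higher, and with scaling on the short transcripts 59 were lower and RPL13 was higher. The median log2 difference was -1.49, or 2.8-fold lower in T-47D, with -2.60 to -0.27 as the range and -1.89 to -1.12 as the middle 50% of genes, against a median of 0.04 over all tested genes. Both T-47D DMSO libraries lay below both ECC-1 DMSO libraries for 79 of 80 members, where 44.1% of all tested genes did so. RPL39L was the exception in both counts, with 19.6 and 14.2 scaled RPKM in T-47D DMSO and 19.4 and 21.1 in ECC-1 DMSO (log2 difference -0.27, SE 0.26, adjusted p = 0.357 by limma).

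Other short transcripts were also lower in T-47D, by less. Their median log2 difference was -0.78, with 155 of 226 lower and 25 higher, and over 2779 other genes of like coding length (252 to 798 nt) it was -0.34. Scaling on the short transcripts, an alternative added after the data were seen, moved the median of all tested genes to 0.80 and the median of the members to -0.67. With a trend on coding length removed from each library, 73 members were lower and their median was -1.24. All 8 T-47D libraries lay below all 8 ECC-1 libraries for 48 of 80 members, 60.0%, where 32.6% of all tested genes and 35.4% of the short transcripts did so.

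**Figure D2:**
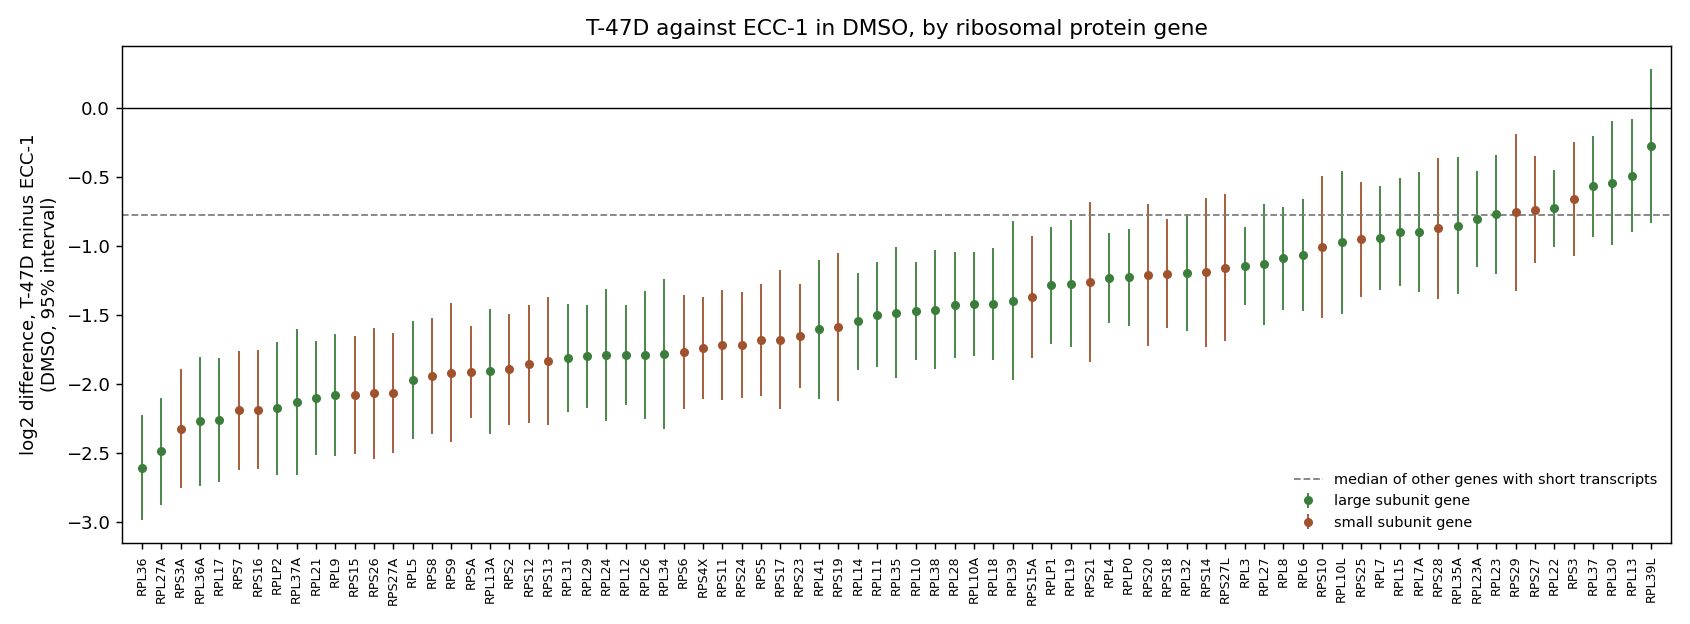
Log2 difference between T-47D and ECC-1 in DMSO for 79 of the 80 tested ribosomal protein genes, sorted, with its 95% interval from limma (n = 2 libraries per line), green for the large and brown for the small subunit, and a dashed line at the median of the 226 short transcripts of other genes. Values run from -2.60 for RPL36 to -0.27 for RPL39L; under quantile normalization 5 of the called genes turn positive, and under scaling on the short transcripts 9 do.

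All 3 stalk genes were lower in T-47D, by unequal amounts. RPLP2 had 73.2 and 71.2 scaled RPKM in T-47D DMSO and 333 and 323 in ECC-1 DMSO (4.51-fold lower, log2 difference -2.17, SE 0.23). RPLP1 had 324 and 316 in T-47D and 744 and 815 in ECC-1 (2.43-fold lower). RPLP0 had 1020 and 1030 in T-47D and 2500 and 2300 in ECC-1 (2.34-fold lower). RPLP1 and RPLP2 form the pairs that sit on RPLP0, and the mRNA of RPLP2 had the larger difference; the difference between the 3 genes was not tested.

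RPL5 and RPL11, which carry 5S rRNA into the large subunit, were both lower. RPL5 had 430 and 367 scaled RPKM in T-47D DMSO and 1600 and 1510 in ECC-1 DMSO (3.91-fold lower), and RPL11 had 326 and 312 in T-47D and 932 and 868 in ECC-1 (2.82-fold lower). For both genes all 8 T-47D libraries lay below all 8 ECC-1 libraries. RPS6 had 538 and 503 in T-47D DMSO and 1810 and 1730 in ECC-1 DMSO (3.4-fold lower). RPS27A, which is made as a fusion with ubiquitin, had 133 and 124 in T-47D and 552 and 524 in ECC-1 (4.18-fold lower). RPSA had 595 and 538 in T-47D and 2190 and 2060 in ECC-1 (3.76-fold lower).

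The largest differences were in proteins of both subunits. RPL36, a large-subunit protein, had 70.7 and 60.3 scaled RPKM in T-47D DMSO and 421 and 378 in ECC-1 DMSO (6.08-fold lower, log2 difference -2.60, SE 0.18, adjusted p = 2.88e-09 by limma). RPL27A was 5.6-fold lower in T-47D (log2 difference -2.49, SE 0.18). RPS3A had 385 and 347 in T-47D and 1950 and 1720 in ECC-1 (5-fold lower). Next in order were RPL36A, RPL17, RPS7, RPS16, RPLP2, RPL37A, RPL21, RPL9 and RPS15, between -2.27 and -2.08 on the log2 scale. RPS16, of the small subunit, had 184 and 157 in T-47D DMSO and 798 and 752 in ECC-1 DMSO. All of these kept both lines apart in all 16 libraries.

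RPL3, whose product lies near the peptidyl transferase centre and whose muscle form RPL3L was hardly detected, was 2.21-fold lower in T-47D (log2 difference -1.14, SE 0.13).

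The smallest called differences were in RPL13, RPL30, RPL37, RPS3, RPL22, RPS27 and RPS29, between -0.49 and -0.75 on the log2 scale, of which RPL13, RPL30 and RPS3 turned positive under quantile normalization and all 7 under scaling on the short transcripts. RPL22 and RPL37 were chosen after their values were seen. RPL13 had 388 and 379 scaled RPKM in T-47D DMSO and 533 and 544 in ECC-1 DMSO (1.4-fold lower, adjusted p = 0.0308 by limma). RPS3 had 932 and 882 in T-47D and 1460 and 1400 in ECC-1. For these genes the direction therefore depends on the scaling, and calls for RPL13, RPL30 and RPS29 were also lost with no filter on low values.

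Small-subunit genes had a median log2 difference of -1.70 (32 genes) and large-subunit genes of -1.42 (48 genes), with overlapping ranges, and the difference between the subunits was not tested. On each chromosome that holds members, their median was negative, which follows from every tested member having a negative difference. It was lowest, among chromosomes with at least 3 members, on chromosome 2 (-2.09, 4 genes, with -0.43 over 758 other genes there) and chromosome 4 (-2.08, 3 genes, with -0.56 over 408 others). It was nearest to 0 on chromosome 8 (-1.01, 4 genes: RPL7, RPL8, RPL30 and RPS20, with 0.07 over 371 others). The 12 members on chromosome 19, the largest group, had a median of -1.81, where the 829 other genes stood at -0.02, and the 6 on chromosome 17 had -1.20, where 725 others stood at 0.50. Of the X-linked members, RPL36A was 4.82-fold, RPS4X 3.34-fold, RPL10 2.77-fold and RPL39 2.63-fold lower in T-47D.

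Of 7 paralogue pairs, 3 had ratios that did not overlap between the lines. Among all tested genes taken singly, the 8 T-47D libraries lay below all 8 ECC-1 libraries for 32.6% and above them for 34.9%. No such share is given for ratios of other gene pairs. RPL22L1, a paralogue of RPL22 that lies outside the symbol rule, had 6.11 and 5.41 scaled RPKM in T-47D DMSO and 64.2 and 60.2 in ECC-1 DMSO (10-fold lower, adjusted p = 2.86e-10 by limma), while RPL22 had 66.2 and 64.2 in T-47D and 109 and 107 in ECC-1. The RPL22L1 to RPL22 ratio was 0.0842 to 0.137 over the T-47D libraries and 0.445 to 0.639 over the ECC-1 libraries, with no overlap. RPL36AL, the autosomal copy of X-linked RPL36A, had 107 and 88.4 in T-47D DMSO and 123 and 115 in ECC-1 DMSO (log2 difference -0.29, SE 0.19, adjusted p = 0.171 by limma), so the RPL36AL to RPL36A ratio was 1.96 to 2.67 in T-47D and 0.57 to 0.617 in ECC-1. In T-47D the autosomal copy was thus the more abundant of the pair in every library, and in ECC-1 the X-linked gene was. The RPL39L to RPL39 ratio was 0.175 to 0.237 in T-47D and 0.0838 to 0.0952 in ECC-1, also without overlap. RPS27L to RPS27, at 0.0631 to 0.11 in T-47D and 0.108 to 0.165 in ECC-1, and RPL10L to RPL10, at 0.0188 to 0.0311 in T-47D and 0.016 to 0.0236 in ECC-1, overlapped. So did RPL26L1 to RPL26, at 0.0486 to 0.0809 in T-47D and 0.0492 to 0.0684 in ECC-1, and RPL7L1 to RPL7, at 0.0809 to 0.102 in T-47D and 0.0557 to 0.112 in ECC-1. Ratios were not tested, and near-identical sequences within a pair could move reads between its genes.

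**Figure D3:**
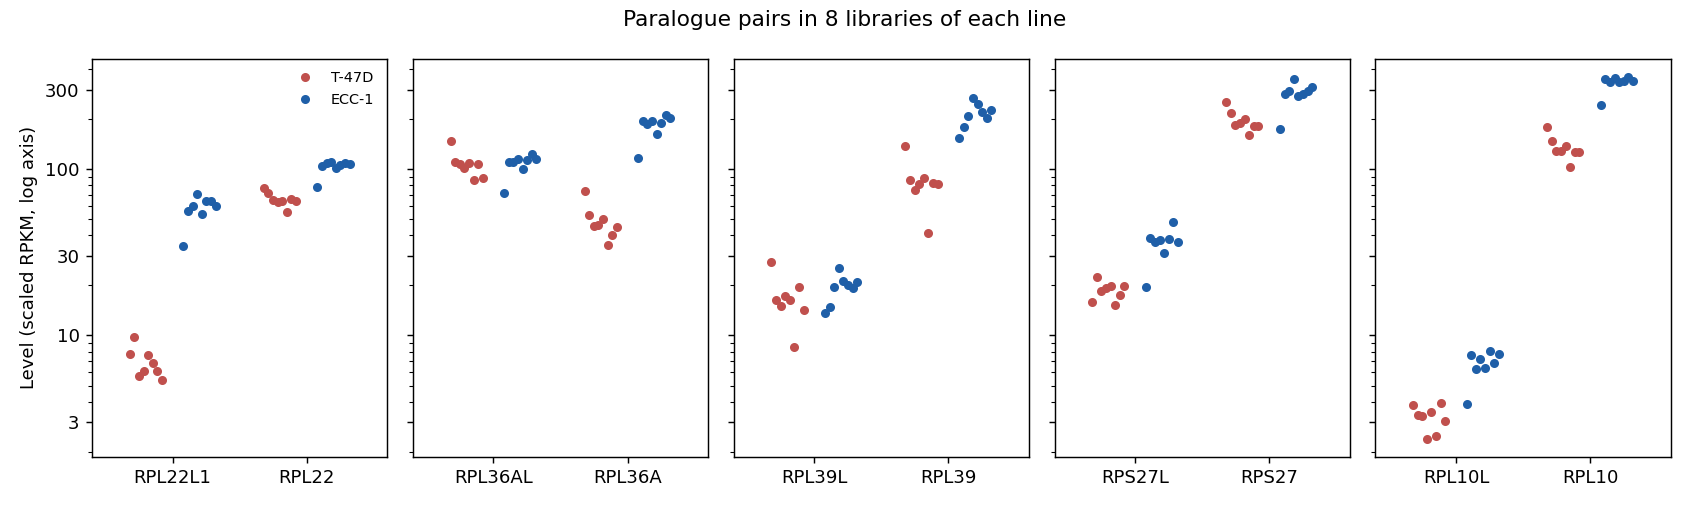
Level of 5 of the 7 paralogue pairs (scaled RPKM, log axis shared by the panels) in the 8 T-47D libraries (red) and the 8 ECC-1 libraries (blue), from left to right E2, BPA, GEN and DMSO with 2 replicates each. RPL22L1 is at most 9.82 in T-47D and at least 34.7 in ECC-1, and RPL36AL is above RPL36A in all T-47D libraries and below it in all ECC-1 libraries.

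Related genes outside the rule are read against the same shares of all tested genes, 37.1% lower and 39.6% higher in T-47D. Of 7 tested genes that code for ribosomal proteins or their paralogues under other names (RACK1 was matched under its older symbol GNB2L1), 6 were lower in T-47D, among them FAU (1.91-fold), a ribosomal protein made as a fusion with a ubiquitin-like protein. Of 20 other TOP mRNAs, 14 were lower and 1 higher, with a median of -0.67; EEF1B2 was 6.53-fold and EEF1A1 3.05-fold lower, and EIF2S3 was 1.64-fold higher in T-47D. All 6 small nucleolar RNA host genes, whose introns hold snoRNAs and several of which are TOP transcripts, were lower, with a median of -1.97, among them GAS5 (4.87-fold) and SNHG5 (5.33-fold). Of 14 regulators of ribosomal protein mRNA, 4 were lower and 6 higher, which is near those shares. Among the single regulators, MYC had 3.07 and 2.95 scaled RPKM in T-47D DMSO and 19.0 and 22.4 in ECC-1 DMSO (6.03-fold lower), and EIF4EBP1, the translation repressor under mTOR, was 3.87-fold lower, while TSC1 (2.42-fold), RPTOR (2.14-fold) and MTOR (1.68-fold) were higher in T-47D.

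Estradiol was accompanied by positive differences of the members in T-47D that did not pass the test. Their summed level was 33356 and 26293 scaled RPKM in the T-47D estradiol libraries and 22830 and 21689 in DMSO. Of 80 members 0 were called by limma, where 3.22% of all tested genes were. Many members had an unadjusted p under 0.05 by limma, the lowest being 0.00207 for RPL36. All 80 had a positive log2 difference, with a median of 0.43, against -0.01 over all tested genes. The member median was 0.31 under quantile normalization and 0.13 with scaling on the short transcripts. Both estradiol libraries lay above both DMSO libraries for 73 of 80 members, where 16.9% of all tested genes and 36.7% of the short transcripts did so. The excess was unequal: the median member stood 0.62 above the DMSO mean in the first estradiol library and 0.25 in the second, where short transcripts of other genes stood at 0.53 and 0.04. Without the first estradiol library of both lines, the median was 0.25 and RPL36 had a log2 difference of 0.49. Without the second T-47D estradiol library the median was 0.62, so the size of the difference rests on which library is kept.

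RPL36 came nearest to the threshold, with 117 and 92.0 scaled RPKM in T-47D with estradiol and 70.7 and 60.3 in DMSO (log2 difference 0.66, SE 0.18, adjusted p = 0.0588 by limma). It was among 6 members called under quantile normalization, and was the one member called with the coding length trend removed. The largest differences were those of RPS19, RPS21 and RPL37A. RPS19, mutated in Diamond-Blackfan anaemia, had 198 and 93.0 with estradiol and 76.9 and 78.6 in DMSO (log2 difference 0.80, adjusted p = 0.121 by limma). RPL37A had 202 and 104 with estradiol and 85.9 and 85.2 in DMSO (log2 difference 0.76, adjusted p = 0.138 by limma). RPS21 had 103 and 60.3 with estradiol and 46.9 and 44.8 in DMSO. In these 3 genes the first estradiol library was the highest and the second lay between it and DMSO. The smallest differences were in RPS27L, RPL10L and RPL15, at 0.03 to 0.07; RPL15 had 354 and 454 with estradiol and 393 and 373 in DMSO, so its first estradiol library was the lowest of the 4. RPL4, with 765 in the first estradiol library and 869 in the second, and RPL5, with 395 and 476, were likewise higher in the second.

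In ECC-1 the members pointed the other way, again without calls. Their summed level was 39995 and 61290 scaled RPKM with estradiol and 63412 and 61201 in DMSO. By limma 0 of 80 were called, where 1.89% of all tested genes were. Some members had an unadjusted p under 0.05 by limma, among them RPS27L (0.0285) and RPS20 (0.0488). All 80 had a negative log2 difference, with a median of -0.38, against 0.0 over all tested genes. The member median was -0.14 under quantile normalization and -0.06 with scaling on the short transcripts. The libraries differed: all 80 members were below both DMSO libraries in the first, with a median of -0.70, where 40.7% of all tested genes were. In the second 41 were below and 14 above, with a median of -0.05, where 38.4% and 33.3% of all tested genes were. Short transcripts of other genes stood at -0.61 and -0.05 in these libraries. Both estradiol libraries lay below both DMSO libraries for 41 of 80 members, where 21.8% of all tested genes and 49.1% of the short transcripts did so. Without the first library of both lines the member median was -0.05, while without the second ECC-1 estradiol library it was -0.70. RPS27L had 19.5 and 38.8 with estradiol and 48.4 and 36.7 in DMSO, RPS20 had 251 and 411 with estradiol and 480 and 442 in DMSO, and RPL37A had 207 and 338 with estradiol and 380 and 371 in DMSO; their log2 differences, the lowest of the members, were -0.60, -0.52 and -0.50. At the other end RPL8 had 1220 and 1650 with estradiol and 1410 and 1640 in DMSO (-0.10), followed by RPS2 (-0.11) and RPL4 (-0.14).

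For the difference between the lines in the response to estradiol, 1 of 80 members was called, near the 1.73% of all tested genes. This was RPL36 (0.89% of all tested genes were called in its direction). Its estradiol libraries had 117 and 92.0 scaled RPKM in T-47D, against 70.7 and 60.3 in DMSO, and 237 and 368 in ECC-1, against 421 and 378 in DMSO (interaction 1.10 on the log2 scale, SE 0.25, adjusted p = 0.0396 by limma). Over the 80 members the median interaction was 0.82 and all were positive. The median was 0.59 over the short transcripts of other genes and -0.01 over all tested genes. With both first estradiol libraries left out the member median was 0.28, and RPL36 then had an interaction of 0.61. The largest interactions were those of RPL37A (1.26), RPS21 (1.23) and RPS14 (1.18) and the smallest those of RPL15 (0.33), RPL4 (0.34) and RPL5 (0.39). The median interaction was 1.11 without the second ECC-1 estradiol library and 0.98 without the second T-47D one. It was 0.46 without the first ECC-1 estradiol library and 0.61 without the first T-47D one. Scaling on the short transcripts gave a median interaction of 0.19 with 0 called, and RPL36 then had 0.48. With the coding length trend removed RPL36 was still called (0.79). The part of transcript length in these values was otherwise not tested.

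**Figure D4:**
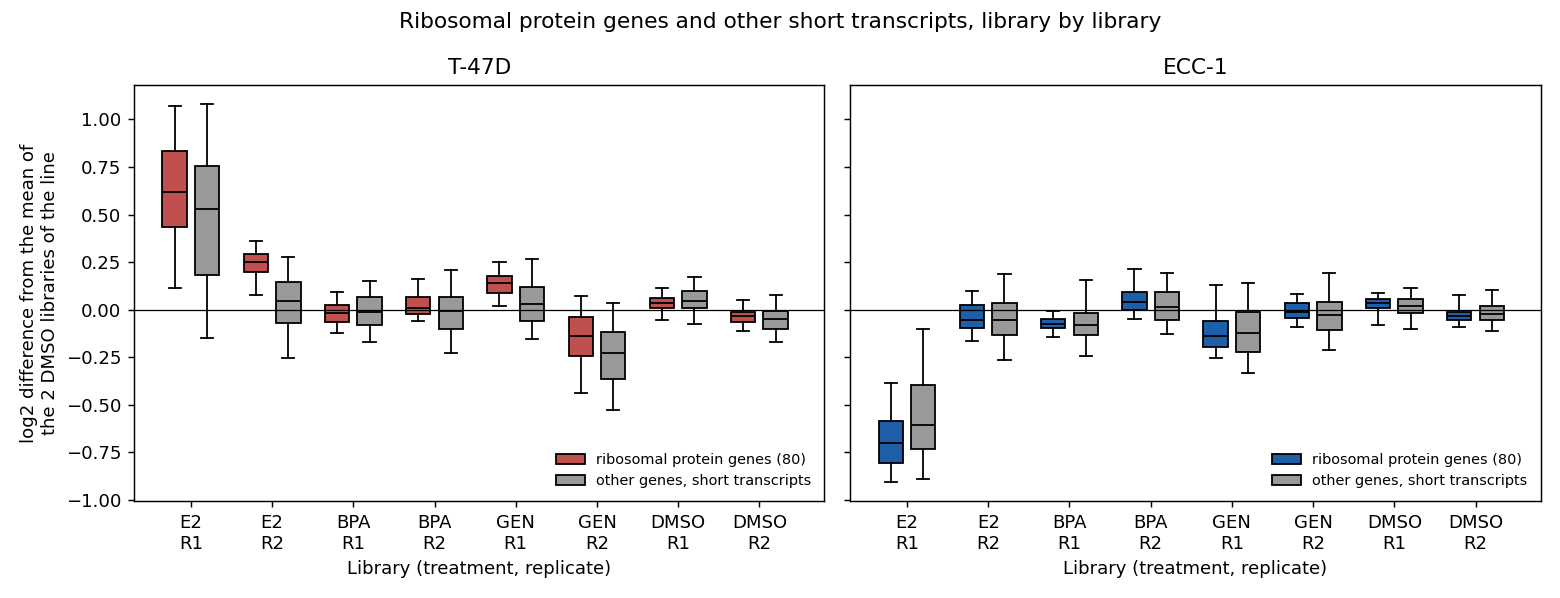
Log2 difference of each gene from the mean of the 2 DMSO libraries of its line, in every library, as boxes (median and quartiles, whiskers from the 5th to the 95th percentile) for the 80 ribosomal protein genes in colour and the 226 short transcripts of other genes in grey. The first estradiol library has member medians of 0.62 in T-47D and -0.70 in ECC-1, and in the other libraries medians lie between -0.14 and 0.25.

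No ribosomal protein gene was called with bisphenol A in either line. Their summed level was 21732 and 22507 scaled RPKM in T-47D with BPA, against 22830 and 21689 in DMSO, and 59162 and 64803 in ECC-1 with BPA, against 63412 and 61201 in DMSO. By limma 0 of 80 were called, where 0% of all tested genes were called in T-47D and 0.195% in ECC-1, and 0 had an unadjusted p under 0.05. Median log2 differences were -0.00 in T-47D and -0.02 in ECC-1. In T-47D single members lay between -0.26 (RPL10L) and 0.20 (RPS29), and in ECC-1 between -0.18 (RPS27L) and 0.15 (RPS29). The median 95% interval of a member, without adjustment for the number of genes, reached 0.43 to either side. It is not the limit of the adjusted calls, since RPL36 at 0.66 with estradiol in T-47D was not called. For each gene, intervals and p-values of all comparisons use 1 spread shared by the 8 groups, the estradiol groups included. The median member gap between libraries, first minus second on the log2 scale, was 0.37 in T-47D and -0.66 in ECC-1 with estradiol. With BPA it was -0.04 and -0.13, and with genistein 0.26 and -0.13. The interval is thus not the spread of the BPA libraries alone.

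Genistein gave no called member either. The summed level was 24364 and 20461 scaled RPKM in T-47D with genistein, against 22830 and 21689 in DMSO, and 58063 and 62146 in ECC-1 with genistein, against 63412 and 61201 in DMSO. By limma 0 of 80 were called in each line, where 0.803% of all tested genes were called in T-47D and 0.969% in ECC-1, and 0 had an unadjusted p under 0.05. In T-47D the 2 libraries went opposite ways, with 71 members above both DMSO libraries in the first (median 0.14; 32.2% of all tested genes) and 58 below both in the second (median -0.14; 36.1% of all tested genes), where short transcripts of other genes stood at 0.03 and -0.23. RPL39, an X-linked member of the exit tunnel, had 89.0 and 41.4 with genistein and 82.8 and 81.1 in DMSO (log2 difference -0.43, SE 0.27), and its paralogue RPL39L had 16.4 and 8.53 with genistein and 19.6 and 14.2 in DMSO. In ECC-1 the median was -0.07, and both genistein libraries lay below both DMSO libraries for 19 of 80 members, where 29.2% of all tested genes did so. RPS27L had 31.2 and 38.0 in ECC-1 with genistein and 48.4 and 36.7 in DMSO (log2 difference -0.29, SE 0.25).

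Genistein and BPA were given at the same dose and time, and 2 pairs were compared, 1 in each line. No member differed by limma, where 0.405% of all tested genes were called in T-47D and 0.0434% in ECC-1, and 0 had an unadjusted p under 0.05. Median log2 differences, GEN over BPA, were -0.00 in T-47D and -0.06 in ECC-1, with members from -0.43 (RPL39L) to 0.17 (RPL12) in T-47D and from -0.20 (RPS27) to 0.08 (RPL10L) in ECC-1, against a median interval of 0.43 to either side. The line by treatment difference was called for 0 members with BPA, where 0.0434% of all tested genes were, and for 0 with genistein, where 0.586% were, and 0 members had an unadjusted p under 0.05 in each.

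A few related genes were called with treatment. MYC had 14.7 and 14.1 scaled RPKM in T-47D with estradiol, 11.5 and 11.5 with genistein, and 3.07 and 2.95 in DMSO, and rose 4.25-fold with estradiol (adjusted p = 2.99e-06 by limma) and 3.42-fold with genistein (adjusted p = 7.35e-05). In ECC-1 it had 35.4 and 33.1 with estradiol, 37.2 and 34.5 with genistein, and 19.0 and 22.4 in DMSO, and rose 1.64-fold with estradiol (adjusted p = 0.0289 by limma) and 1.72-fold with genistein (adjusted p = 0.0229). With BPA, MYC was 1.53-fold higher than in DMSO in T-47D and 1.46-fold higher in ECC-1, and was called in neither line. Genistein over BPA was called for MYC in T-47D (2.24-fold, adjusted p = 0.00328 by limma) but not in ECC-1 (1.18-fold). None of the other 13 regulators was called with estradiol in either line. Of the other TOP mRNAs, IMPDH2, the rate-limiting enzyme of guanine nucleotide synthesis, rose 1.45-fold with estradiol in T-47D (adjusted p = 0.021 by limma), with 151 and 134 scaled RPKM with estradiol and 99.2 and 96.8 in DMSO. It was the one call of 20 in T-47D, near the 3.22% of all tested genes, and 0 of 20 were called in ECC-1, where 1.89% were. Of the 6 snoRNA host genes, SNHG8 had 36.5 and 28.4 scaled RPKM in T-47D with estradiol and 17.4 and 18.7 in DMSO, and rose 1.76-fold (adjusted p = 0.0219 by limma). SNHG12 had 5.51 and 4.99 with estradiol and 3.31 and 2.16 in DMSO, and rose 1.8-fold (adjusted p = 0.0279 by limma). Without both first estradiol libraries, MYC (4.17-fold), IMPDH2 (1.37-fold) and SNHG8 (1.56-fold) were still called in T-47D. SNHG12 in T-47D (1.72-fold, adjusted p = 0.0635 by limma) and MYC in ECC-1 (1.59-fold, adjusted p = 0.107 by limma) were then not called. The estradiol and genistein comparisons within a line share their DMSO libraries.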

How the data were processed

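RNA was measured in 16 libraries of 2 cell lines. The deposited values are RPKM per RefSeq transcript, made by the authors with Bowtie on hg19, per the submitters' processing notes; the counting step and the treatment of reads with several matches are not given there. Libraries came from polyadenylated RNA by a transposase method that keeps no strand, per the labels' protocols. Of 32062 transcripts, the one with the highest mean was kept for each of 21453 symbols. Each library was divided by its median ratio over 7547 genes with at least 5 RPKM in every library. Genes that reached 1 RPKM in 2 or more libraries, 13827 in all, were tested with limma 3.58.1 (R 4.3.3) on log2(scaled RPKM + 0.5), with 8 group means and empirical Bayes with trend (8 residual degrees of freedom), and p-values adjusted by Benjamini-Hochberg at 0.05. Fold changes are on the log2(RPKM + 0.5) scale, which understates changes of low genes, and intervals are 95%. The fit was tested on simulated data.

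Depth was estimated, as the reads that 1 RPKM stands for in a transcript of 1 kb, at 17.3 to 29.4 per library. Of values under 10 reads, 62.0% to 64.3% came within 0.1 of a whole read, where 20% do by chance, so counts were not recovered and no count test was run. The members and gene lists were chosen with earlier results of these data known. Genes named are members called (at most the 12 largest in each direction) and the 3 highest and 3 lowest differences of a comparison. Where none was called with BPA or GEN, these are the ends of the range. Also named are the 6 highest and 6 lowest levels, the stalk, RPL5, RPL11, RPSA, RPS6, RPS27A and X-linked members. The paralogue pairs listed were those of RPL3, RPL10, RPL39 and RPS27. Pairs of RPL22, RPL36A, RPL26 and RPL7 with related genes outside the rule were not on that list. Others are said to be chosen later. Alternatives were no scaling, quantile and trimmed-mean scaling, pseudocounts of 0.1 and 1, other filters, other transcript choices, a replicate block, array weights, smaller fits, removal of a coding length trend, and leaving out libraries. Scaling on short transcripts (GENCODE 29 lengths) was added after the data were seen. Promoters are from RefSeq GRCh38.p14, a build other than that of the values, so no coordinates were joined. The individual values of 1 member and of 1 related gene are not reported here; both are included in the counts, medians and sums.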

Additional observations from a re-analysis of the deposited data

Results flagged for a closer look

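RPL36 was the 1 member of 80 called for a difference between the lines in the response to estradiol, near the 1.73% of all tested genes. The gene had an interaction of 1.10 on the log2 scale (SE 0.25, adjusted p = 0.0396 by limma). It had 117 and 92.0 scaled RPKM in T-47D with estradiol, against 70.7 and 60.3 in DMSO, and 237 and 368 in ECC-1 with estradiol, against 421 and 378 in DMSO. Both T-47D estradiol libraries were above both DMSO libraries, and both ECC-1 estradiol libraries were below both DMSO libraries. Without both first estradiol libraries the interaction was 0.61 (adjusted p = 0.123 by limma). The call was also lost with no filter on low values (adjusted p = 0.141 by limma), with the replicate block (0.0544), with array weights (0.127), with only the groups compared (0.203), with scaling on the short transcripts (interaction 0.48, adjusted p = 0.158 by limma), and without each of 6 of the 8 libraries.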

How the results depend on the processing

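In the line comparison, 59 of the 79 calls were kept under all 20 alternatives followed and 20 were lost under at least 1. Under quantile normalization the T-47D minus ECC-1 difference turned positive for RPL13 (0.35), RPL23 (0.073), RPL30 (0.32), RPL7A (0.013) and RPS3 (0.12). Scaling on the short transcripts turned it positive for RPL13 (0.33), RPL22 (0.089), RPL23 (0.046), RPL23A (0.012), RPL30 (0.28), RPL37 (0.24), RPS27 (0.081), RPS29 (0.056) and RPS3 (0.16). The cause was not tested. With estradiol in T-47D the count of 0 became 6 under quantile normalization, 1 with the length trend removed and 1 without both first estradiol libraries, and ranged from 0 to 36 with 1 library left out. With estradiol in ECC-1 it ranged from 0 to 64 with 1 library left out. For the estradiol interaction the count of 1 became 0 with no filter, with the replicate block, with array weights, without both first estradiol libraries, with scaling on the short transcripts and with only the groups compared, and ranged from 0 to 72 with 1 library left out. A lone library left in a group is assumed to vary like the others.

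Replicate numbers are shared across groups, but nothing in the labels pairs the libraries, and the deviations of same-numbered libraries correlated between -0.381 and 0.408 over genes, depending on the comparison. With the replicate block 79 members were called between the lines, 0 with estradiol in either line and 0 for the estradiol interaction (RPL36, adjusted p = 0.0544 by limma). Depth limits the members with low levels, such as RPL3L and RPL10L.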
